A study of Mus musculus with 4 samples.

Results

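The genes examined were the 4 Fgf ligand genes of the apical ectodermal ridge, Fgf4, Fgf8, Fgf9 and Fgf17, together with Fbxw4, the gene next to Fgf8 that contains ridge enhancers of Fgf8. An accessible region was counted for them when its centre lay nearer to a transcription start of a listed gene than to that of any other protein-coding gene, or within 2.5 kb of such a start, or when it overlapped Fbxw4. This gave 16 of the 42613 regions in the E9.5 list and 12 of the 46765 regions in the E10.5 list, for 5 of the 22380 protein-coding genes of the annotation.

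Open chromatin was profiled by ATAC-seq, in which a transposase inserts sequencing adapters into accessible DNA, in wild-type NMRI mouse embryos. The E9.5 samples, given as E9.75 in the protocol, were a pair of forelimb buds of 1 embryo with the adjoining trunk, and the E10.5 samples were a pair of forelimb buds without a named trunk part. For the E10.5 samples, hindlimb buds are named as well under tissue. Each stage had 2 biological replicates, which the authors merged into a single list. Stage and trunk tissue cannot be told apart, the spread between embryos cannot be given, and stages were compared by counts and ranks without a test.

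The apical ectodermal ridge is a thickened epithelium along the distal rim of the limb bud. It secretes FGFs that keep the underlying mesenchyme proliferating and undifferentiated, and the mesenchyme in turn maintains the ridge through BMP antagonism by GREM1 and through FGF10. Fgf8 is expressed along the whole ridge from its formation, whereas Fgf4, Fgf9 and Fgf17 are switched on later, mainly in its posterior part, and the loss of Fgf8 and Fgf4 together stops limb outgrowth. Ridge cells are a small part of a limb bud, and fewer ridge cells and less accessibility per cell cannot be told apart in such bulk samples.

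The Fgf4 promoter is shown because it had a region in the E9.5 list only. It is given as the bases just before the most 5′ annotated start, read 5′ to 3′ on the strand of the gene from the mm9 genome, and capitals mark matches on either strand to the SP/KLF motif GGGCGG and the SMAD motifs CAGAC and GGCGCC.

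Fgf4 promoter (chr7:152047041-152047290, + strand): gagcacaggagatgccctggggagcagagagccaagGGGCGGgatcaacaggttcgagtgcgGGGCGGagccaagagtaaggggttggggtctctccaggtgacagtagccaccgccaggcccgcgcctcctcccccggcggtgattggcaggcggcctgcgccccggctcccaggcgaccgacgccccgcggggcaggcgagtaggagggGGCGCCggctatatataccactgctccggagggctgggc

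The Fgf4 promoter stretch of 250 bases was 71.2% G and C and held 21 CpG dinucleotides. The next 5 stretches are taken from distal or narrowed regions that the results turn on: the part of the Fgf8 and Fbxw4 distal regions held in common by both lists, the Fgf17 region nearest to its start, the part of the Fgf9 promoter region that was also present at E10.5, and the highest-scoring E10.5-specific region of Fgf9. Capitals have the same meaning, and also mark the AP-1 motif TGANTCA. Overlapping matches run together. Repeat sequence was not marked in any stretch, so parts of a stretch, motif matches included, may be repeat sequence.

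Fgf8 downstream (chr19:45800243-45800542, - strand): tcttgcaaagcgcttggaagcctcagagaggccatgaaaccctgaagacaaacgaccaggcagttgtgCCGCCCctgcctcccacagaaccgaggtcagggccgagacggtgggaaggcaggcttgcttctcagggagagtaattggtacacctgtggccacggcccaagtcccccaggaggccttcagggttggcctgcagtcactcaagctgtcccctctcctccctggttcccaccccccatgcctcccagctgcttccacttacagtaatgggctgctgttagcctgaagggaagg
Fbxw4 intron (chr19:45724457-45724756, - strand): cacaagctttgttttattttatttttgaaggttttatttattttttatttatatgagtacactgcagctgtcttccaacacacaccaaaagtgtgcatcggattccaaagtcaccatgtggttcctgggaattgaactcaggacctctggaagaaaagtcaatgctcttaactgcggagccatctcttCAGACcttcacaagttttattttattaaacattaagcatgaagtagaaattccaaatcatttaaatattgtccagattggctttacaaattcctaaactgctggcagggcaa
Fgf17 upstream (chr14:71045371-71045670, - strand): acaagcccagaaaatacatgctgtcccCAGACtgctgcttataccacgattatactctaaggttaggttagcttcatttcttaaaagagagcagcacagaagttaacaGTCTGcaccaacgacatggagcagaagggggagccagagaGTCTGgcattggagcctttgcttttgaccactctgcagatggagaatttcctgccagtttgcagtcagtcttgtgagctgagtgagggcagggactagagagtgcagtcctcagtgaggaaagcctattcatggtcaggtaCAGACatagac
Fgf9 5′ part (chr14:58690817-58691066, + strand): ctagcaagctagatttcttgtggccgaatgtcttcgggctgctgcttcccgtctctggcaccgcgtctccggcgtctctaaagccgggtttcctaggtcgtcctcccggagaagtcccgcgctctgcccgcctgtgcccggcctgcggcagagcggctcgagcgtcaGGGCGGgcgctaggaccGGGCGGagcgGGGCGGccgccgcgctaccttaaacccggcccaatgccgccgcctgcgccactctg
Fgf9 distal (chr14:58772843-58773142, + strand): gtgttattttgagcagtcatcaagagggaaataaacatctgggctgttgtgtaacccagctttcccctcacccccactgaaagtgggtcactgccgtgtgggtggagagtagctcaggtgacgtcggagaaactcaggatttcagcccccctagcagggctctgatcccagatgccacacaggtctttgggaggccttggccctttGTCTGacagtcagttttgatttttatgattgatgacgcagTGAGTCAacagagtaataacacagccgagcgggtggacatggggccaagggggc

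The Fbxw4 intron stretch was 36.0% G and C with 2 CpG dinucleotides in 300 bases, against 60.7% and 7 in the downstream Fgf8 stretch. The stretch from the 5′ part of Fgf9 held 31 CpG dinucleotides in 250 bases. Beyond these stretches, 8 motifs were searched in a fixed window around the centre of every region, on both strands. The homeodomain motif TAATTA and the GATA motif AGATAA were in 0 of the 16 E9.5 and 0 of the 12 E10.5 windows, against 5.12% and 10.4% of all E9.5 regions and 8.78% and 9.74% of all E10.5 regions. The SMAD motif CAGAC was in 9 of 16 and 3 of 12 windows, against 54.0% and 52.8% of all regions and 40.9% of promoters. The SP/KLF motif GGGCGG was in 3 of 16 and 4 of 12 windows, against 30.6% and 25.7%. LEF/TCF matches, CTTTGAA or CTTTGAT, were in 2 windows of each list, against 9.85% and 11.9% of all regions. The SMAD motif GGCGCC and the ETS motif CCGGAA were each in 1 window of each list, against 13.0% and 11.4% of all E9.5 regions. The shares of all E10.5 regions were 11.2% and 10.3%. The AP-1 motif TGANTCA was in 0 E9.5 windows and 1 E10.5 window, against 6.97% and 7.45%. No difference in motif shares was tested.

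Each region carries a score, the negative log10, multiplied by 10, of the smallest p-value that the peak caller MACS gave to the replicate regions merged in it. Because such a score grows with sequencing depth, which is unknown here, a region is also described by its percentile, the rank of its score within its own list from 0 to 100. A region is named shared if it has at least 1 bp in common with a region from the other stage, and stage-specific if it has none. The lists had median scores of 260 at E9.5 and 241 at E10.5 and median widths of 1100 and 1000 bp.

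Of the 16 E9.5 regions, 8 were stage-specific, 50% with a 95% Wilson interval of 28.0 to 72.0%, against 29.9% of the whole E9.5 list. Of the 12 E10.5 regions, 4 were stage-specific, 33.3% with an interval of 13.8 to 60.9%, against 35.0% of the whole list. The intervals cover counting error only and treat regions as independent, although several lie at the same gene. Low-scoring regions were more often stage-specific, and the average over the score deciles of the members came to 37.3% in the E9.5 list and to 46.5% in the E10.5 list. The members ranked low in both lists: 11 of the 16 E9.5 regions and 10 of the 12 E10.5 regions scored under the median of their list, and the highest percentiles were 76.9 for Fgf9 at E9.5 and 60.7 for Fbxw4 at E10.5.

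**Figure D1:**
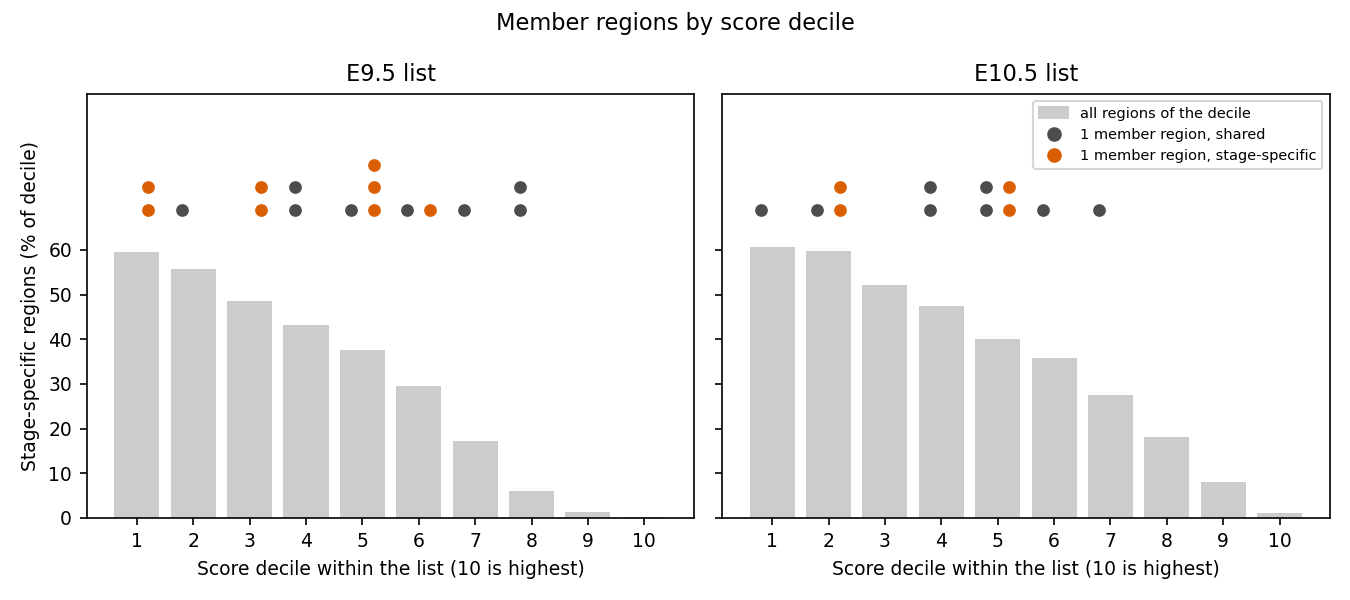
Share of regions that were stage-specific in each score decile of the E9.5 list (left) and the E10.5 list (right), as grey bars in percent, with each member region as 1 dot above its decile (grey, shared; orange, stage-specific; the height of the dots only separates them). The share fell from 59.4% in the lowest E9.5 decile to 0.117% in the highest, and no member region lay in the upper 2 deciles of either list.

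The genes fell into 3 patterns by promoter, defined as a region centred within 2.5 kb of a start. Fgf8 and Fgf4 had a promoter region at E9.5 only, which was the case for 3.75% of protein-coding genes. Fgf9 and Fbxw4 had one at both stages, as had 61.3% of genes. Fgf17 had none at either stage, as had 33.8% of genes. None of the 5 genes had a promoter region at E10.5 only, against 1.12% of genes. Among the 5 E9.5 promoter regions of these genes 2 were stage-specific, against 13.1% of all E9.5 promoter regions, and among the 11 distal ones 6 were, against 40.3%. At E10.5, 0 of 3 promoter regions were stage-specific, against 5.31%, and 4 of 9 distal ones, against 49.6%.

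Fgf8, the ligand produced by the whole ridge, had 4 E9.5 regions and 1 E10.5 region. The gene (ENSMUSG00000025219.7) lies on chr19:45811288-45817405, minus strand. Its promoter region at chr19:45816189-45818207, which covers coding and UTR sequence of the 5′ part of the gene and the start, scored 209 at E9.5, at percentile 42.7. No E10.5 region overlapped it, and the nearest one was 5406 bp away. The region over the 3′ end, chr19:45811136-45812561, scored 260 at E9.5, at percentile 49.99, and was also E9.5-specific. A weak intergenic region 25.1 kb downstream of the start, chr19:45791811-45792719, scored 103, at percentile 7.96, and was absent from the E10.5 list. Only the region 17.0 kb downstream of the start, in intergenic sequence between Fgf8 and Fbxw4, was shared. It scored 124 at E9.5 (chr19:45799987-45800798, percentile 18.6) and 235 at E10.5 (chr19:45799892-45800902, percentile 49.1). Its rank was thus 30.5 percentile points higher at E10.5, and 91.8% of the 29883 shared pairs had a difference at or under this one. Over its start and 3′ end, Fgf8 thus had 2 regions at E9.5 and 0 at E10.5, while the downstream region ranked higher at E10.5.

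Of the 447 genes whose best E9.5 promoter region was in the same score decile, 136 (30.4%) had none at E10.5. The Fgf8 promoter window was 75.7% G and C, and among the E9.5 promoter regions of that decile the share without E10.5 overlap was 70.2% (73 of 104) for those with at least 70% G and C and 30.8% (221 of 717) for the others. The part of base composition in the Fgf8 result was not tested. All 4 E9.5 regions of Fgf8 and its E10.5 region scored under the median of their list, so with the higher-scoring 50% of each list Fgf8 had 0 regions at either stage.

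Fbxw4, an F-box gene whose introns hold ridge enhancers of Fgf8, had 6 E9.5 regions and 3 E10.5 regions. The gene (ENSMUSG00000040913.4) lies on chr19:45652744-45734802, minus strand, downstream of Fgf8. Its promoter region was shared, and scored 668 at E9.5 (chr19:45733733-45735445, percentile 72.0) and 335 at E10.5 (chr19:45733934-45735294, percentile 60.7). Within the 82.1 kb of the gene, 1 further region was found, in an intron 92.8 kb from the Fgf8 start. It scored 300 at E9.5 (chr19:45724229-45725071, percentile 54.1) and 168 at E10.5 (chr19:45724246-45724966, percentile 35.3). Whether it is a ridge enhancer of Fgf8 was not tested, nor was its content of repeat sequence. The body of Fbxw4 held about as many regions as genes of like length: 2 regions in each list overlapped it, against medians of 1 at E9.5 and 2 at E10.5 over 1981 genes of 60 to 110 kb.

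The other 4 E9.5 regions of Fbxw4 lay outside the gene. Those 15.8 and 31.1 kb upstream of it, in the interval towards Fgf8, scored 128 (chr19:45750086-45751019, percentile 20.1) and 143 (chr19:45765408-45766328, percentile 26.1), and both were E9.5-specific. The other pair lay in an intron of Dpcd, past the 3′ end of Fbxw4, and was assigned through an Fbxw4 start near that end. Of these, chr19:45649682-45651066 was E9.5-specific with a score of 264, and chr19:45648088-45648992 was shared, at percentile 30.3 at E9.5 and 5.58 at E10.5. With 1 start per protein-coding gene, Fbxw4 had 4 regions at E9.5 and 2 at E10.5. All 3 shared Fbxw4 regions had lower percentiles at E10.5, with differences of -11.2, -18.8 and -24.7 points, opposite in direction to the shared Fgf8 region. Fgf8 and Fbxw4 together had 10 regions at E9.5, of which 6 were stage-specific (interval 31.3 to 83.2%, against 29.9% of the list). They had 4 at E10.5, of which 0 were (interval 0 to 49.0%, against 35.0%). The averages over their score deciles were 39.6% for the 10 E9.5 regions and 43.9% for the 4 E10.5 regions. Both lie inside these intervals, which treat neighbouring regions as independent and cannot show agreement or difference.

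The interval around Fgf8 was also counted as a whole, member regions included. Within 200 kb of the Fgf8 start the E9.5 list held 19 regions and the E10.5 list 8, with 11 E9.5-specific (57.9%, 95% Wilson interval 36.3 to 76.9%) and 0 of 8 E10.5-specific (interval 0 to 32.4%). Without the regions of Fgf8 and Fbxw4, the interval held 9 E9.5 regions, of which 5 were stage-specific (55.6%, interval 26.7 to 81.1%), and 4 E10.5 regions, of which 0 were (interval 0 to 49.0%). These intervals are wide and treat neighbouring regions as independent. The 29.9% and 35.0% of the whole lists take no account of score, and the share for regions of like score was not computed here. The ratio of E10.5 to E9.5 regions, 0.421, was low among genes: 304 of 17194 genes with at least 5 E9.5 regions in such a window (1.77%) had a ratio as low or lower, and the median was 0.905. This ratio rests in part on the member regions, and the interval without them was not ranked. Windows of neighbouring genes overlap, and the members were chosen with earlier results known, so the rank is a description only. Among the 3384 genes whose window G and C content was within 1 percentage point of that of Fgf8, 1.86% were as low or lower. The potassium channel-interacting protein gene Kcnip2 had 4 E9.5-specific regions with scores of 144 to 329, and a region upstream of Fgf8, at -4.06 kb from its start and over the UTR of Npm3, was E9.5-specific with a score of 372. The strongest region of the interval, the Mgea5 promoter at -40.5 kb, was shared, with scores of 2673 and 1375. Fewer regions at E10.5 were also counted with 100 kb on each side (15 and 5 regions), with 400 kb (32 and 18) and with scores of at least 120 (18 and 6).

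**Figure D2:**
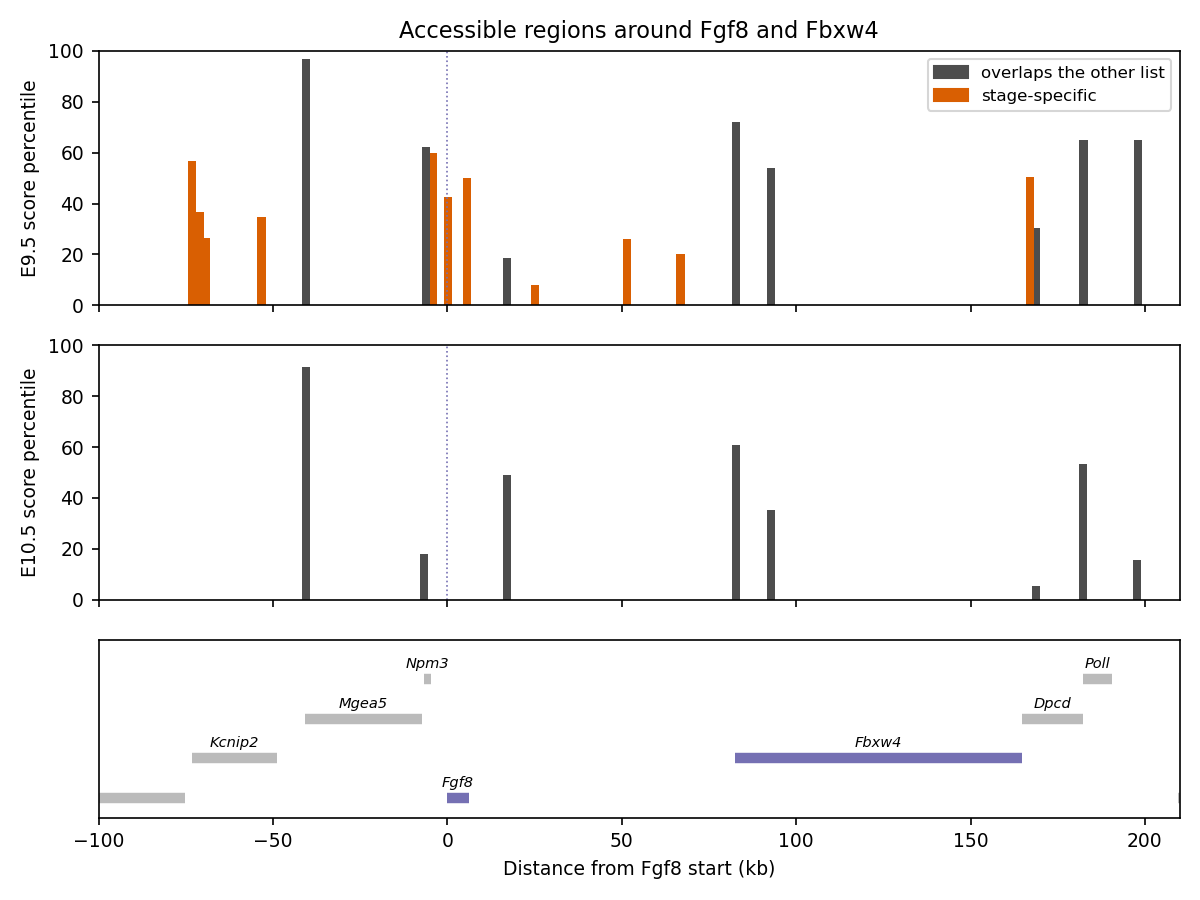
Accessible regions around Fgf8 and Fbxw4, by distance of the region centre from the Fgf8 start in kb (positive values are downstream, in the direction of Fgf8 transcription) and score percentile within each list, at E9.5 (top) and E10.5 (middle), with protein-coding genes below (purple, Fgf8 and Fbxw4). Bars have a fixed width that is wider than the regions, and orange bars, 11 at E9.5 and 0 at E10.5, have no overlap in the other list.

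Fgf4, the posterior ridge ligand, had 1 region, at its promoter and at E9.5 only. The gene (ENSMUSG00000050917.4) lies on chr7:152047291-152051148, plus strand, and the region at chr7:152046880-152048092 covers its start and coding sequence. It scored 106, at percentile 9.55, close to the lower limit of the list, whose smallest score was 60.5. At E10.5, 0 regions were assigned to Fgf4, and the nearest one was 25.2 kb away. Among genes whose E9.5 promoter region was in the same lowest decile, 67.9% (114 of 168) had none at E10.5. The window was 74.4% G and C, and 13 of the 14 promoter regions of that decile with at least 70% G and C were E9.5-specific, against 70.3% of the others. The region falls away when only scores of at least 120 are kept, which leaves Fgf4 with no region in either list.

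Around Fgf4, the neighbouring ligand genes Fgf3 and Fgf15 had promoter regions at E9.5, and of these only Fgf15 had one at E10.5. Of the 18 regions within 200 kb at E9.5, 9 were stage-specific (95% Wilson interval 29.0 to 70.97%, against 29.9% of the list). Of the 12 at E10.5, 1 was (interval 1.49 to 35.4%, against 35.0%). Fgf3, an FGF ligand gene upstream, had an E9.5-specific promoter region, at -22.7 kb, with a score of 369, at percentile 59.5. An E10.5 region with a score of 113 lay nearby, with its centre 2706 bp from the Fgf3 start, just past the promoter distance, and counts for the Fgf3 promoter when distance is measured from its edge. Fgf15, 35.0 kb downstream, had a promoter region at both stages, with percentiles of 77.0 and 47.8. The ratio of regions, 0.667, was reached or undercut by 15.4% of genes, and by 35.1% of those with like G and C content of the window.

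Fgf9, a ligand made by ridge and other epithelia, had the highest-scoring E9.5 region of the 4 ligand genes and the only E10.5-specific regions among all 5 genes. It had 3 E9.5 regions and 6 E10.5 regions. The gene (ENSMUSG00000021974.8) lies on chr14:58689384-58731174, plus strand, and its 2 promoter regions were shared. The first spanned 2510 bp at E9.5 (chr14:58689008-58691517, score 858, percentile 76.9) and 921 bp at E10.5 (chr14:58690481-58691401, score 227, percentile 47.8). The annotation gives 4 starts for Fgf9, of which that at 58691523 belongs to the transcript with the status known and the others to putative ones. The E9.5 region covered the most 5′ start and ended 6 bp before the start of the known transcript, and the E10.5 region kept the part near the latter, ending 122 bp before it. The second, at putative internal starts, spanned 2274 bp at E9.5 (chr14:58693416-58695689, score 485, percentile 65.6) and 779 bp at E10.5 (chr14:58694847-58695625, score 118, percentile 17.1).

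Both Fgf9 promoter regions were thus narrower and ranked lower at E10.5, and with the higher-scoring 50% of each list Fgf9 had no E10.5 promoter region. The width ratios, E10.5 over E9.5, were 0.367 and 0.343, against a median of 0.945 over the 29883 shared pairs, and 0.833% and 0.576% of pairs had a ratio at or under these. The percentile differences of -29.1 and -48.4 points were at or above those of 7.38% and 1.62% of pairs. With a reciprocal overlap of 50% in place of 1 bp, all 3 E9.5 regions of Fgf9 would be stage-specific.

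The 4 E10.5-specific regions of Fgf9 were intergenic and downstream. The highest-scoring, chr14:58772543-58773441, lay 83.6 kb from the start with a score of 215, at percentile 45.7. Another, chr14:58770862-58771605, lay 81.8 kb away, with a score of 119. The remaining pair lay 120.3 kb away (chr14:58809346-58810087, score 105) and 397.8 kb away (chr14:59086473-59087846, score 199). A single E9.5-specific region (chr14:58821653-58822560, score 223, percentile 44.8) lay 132.7 kb downstream. Assignment over such distances rests on the starts used: when starts of genes of every type were counted, Fgf9 kept 2 E10.5 regions, the promoter ones. Within 200 kb the E9.5 list held 8 regions and the E10.5 list 10.

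Fgf17, which is expressed in the posterior ridge, had no promoter region but 2 shared regions upstream of its start. The gene (ENSMUSG00000022101.5) lies on chr14:71036012-71042075, minus strand. The nearer region, 3.45 kb upstream and intergenic, scored 167 at E9.5 (chr14:71045101-71045953, percentile 33.1) and 270 at E10.5 (chr14:71045088-71045939, percentile 53.9). The farther one, 4.96 kb upstream and over the coding and UTR sequence of Npm2, scored 222 at E9.5 (chr14:71046548-71047524, percentile 44.7) and 169 at E10.5 (chr14:71046643-71047505, percentile 35.4). The neighbouring regions therefore changed rank in opposite directions, by 20.8 and -9.32 points. Their positions were almost the same at both stages, with 839 and 863 bp in common. A further shared region overlapped the 3′ part of Fgf17 but lay nearest to a start of Epb4.9, with a UTR of that gene under it, and was therefore not counted. It ranked above both upstream regions, with a score of 326 at E9.5 (chr14:71035177-71037775, percentile 56.4) and 476 at E10.5 (chr14:71034757-71036191, percentile 70.1). With a promoter distance of 5 kb, Fgf17 would have a promoter region at both stages. Within 200 kb, 25 regions at E9.5 and 26 at E10.5 included only 2 and 3 stage-specific ones.

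**Figure D3:**
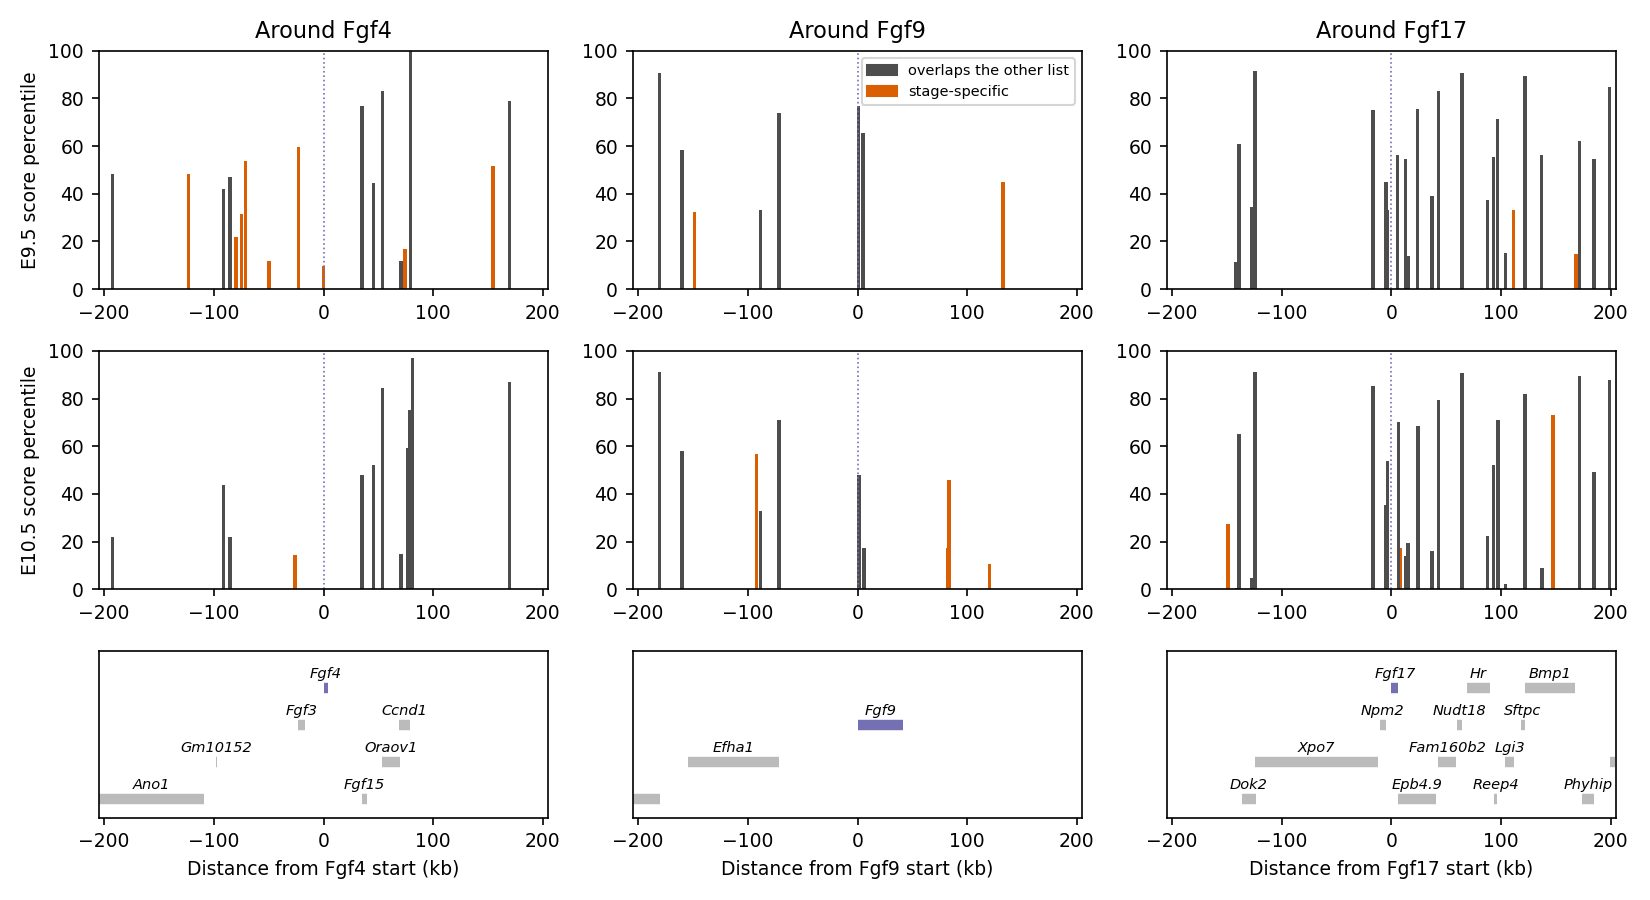
Accessible regions within 200 kb of the Fgf4, Fgf9 and Fgf17 starts, by distance of the region centre in kb (positive values are downstream of the start) and score percentile at E9.5 (top) and E10.5 (middle), with protein-coding genes below; bars have a fixed width wider than the regions. Stage-specific regions (orange) number 9 at E9.5 and 1 at E10.5 around Fgf4, 2 and 4 around Fgf9, and 2 and 3 around Fgf17.

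**Figure D4:**
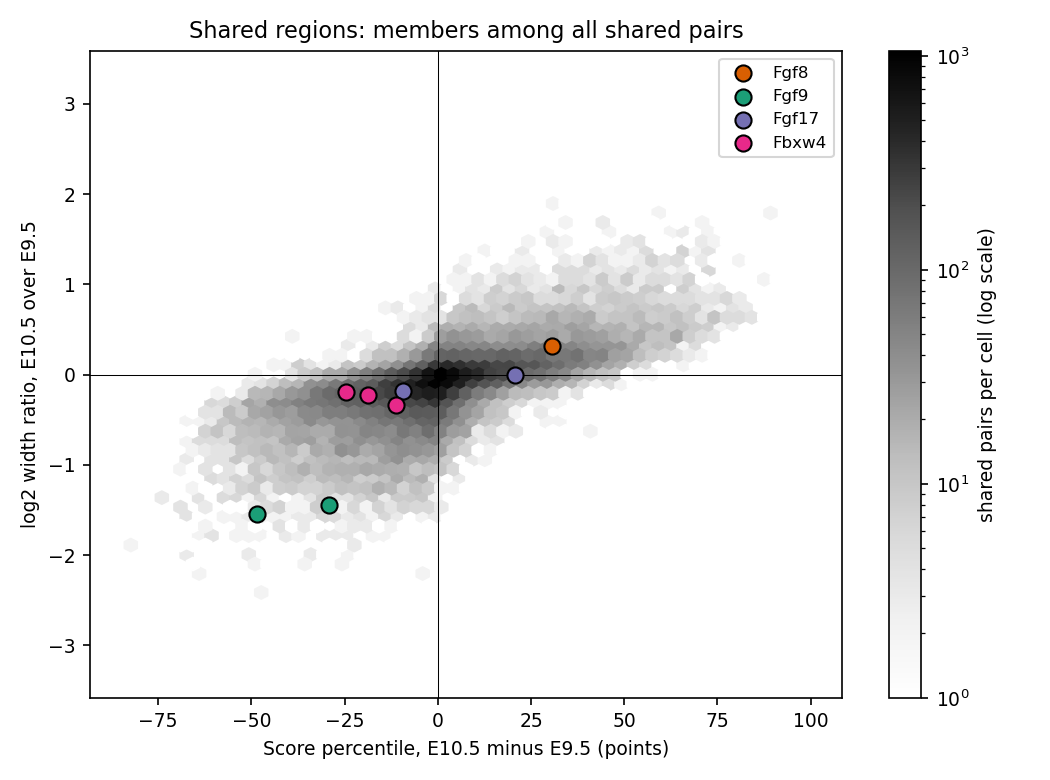
The 8 shared member regions among all 29883 shared pairs, by the difference in score percentile (E10.5 minus E9.5, in points) and the log2 ratio of widths (E10.5 over E9.5); grey shading counts pairs per cell on a log scale. Both Fgf9 regions lie at the lower left, narrower and lower in rank at E10.5, and the Fgf8 downstream region lies at the upper right.

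The 5 genes were set beside the rest of the pathway. Of the 18 other FGF ligand genes, 12 had a promoter region at both stages, 1 at E9.5 only (Fgf3), 1 at E10.5 only (Fgf7) and 4 at neither (Fgf6, Fgf16, Fgf21 and Fgf23). Fgf10, the mesenchymal ligand that maintains the ridge, had promoter percentiles of 92.3 and 97.4 and 6 regions at E9.5 against 19 at E10.5, where Fgf8 had 4 and 1. In all, these 18 genes had 48 regions at E9.5, of which 11 were stage-specific (22.9%, against 29.9% of the list), and 83 at E10.5, of which 46 were (55.4%, against 35.0%).

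Of the 7 receptor and co-receptor genes, 5 had a promoter region at both stages, Fgfr4 at E9.5 only and Klb at neither. These genes had 42 regions at E9.5, of which 17 were stage-specific (40.5%, against 29.9% of the list). At E10.5 they had 34, of which 9 were (26.5%, against 35.0%). Fgfr2, the receptor of FGF10 in the epithelium and of ridge FGFs in its mesenchymal isoform, had 18 regions at E9.5 and 12 at E10.5. Of these, 10 and 4 were stage-specific. Of the 10 FGF targets and feedback genes, 9 had promoter regions at both stages. The exception was Dusp6, a phosphatase induced by FGF signalling: measured from the edge of the region, it had a promoter region with a score of 3100 at both stages. The 10 genes had 57 regions at E9.5, of which 17 were stage-specific (29.8%), and 73 at E10.5, of which 34 were (46.6%). Of the 15 ridge genes, 13 had a promoter region at both stages, Sp6 at E9.5 only and Trp63 at neither. These 15 had 91 regions at E9.5, of which 26 were stage-specific (28.6%), and 125 at E10.5, of which 57 were (45.6%). Sp6, a zinc finger gene of the ridge, scored 114 at E9.5, at percentile 13.6, and 339 when measured from the edge, with no E10.5 promoter region by either measure.

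Defining markers of the tissues were checked in the same way. Of all protein-coding genes, 61.3% had a promoter region at both stages, 3.75% at E9.5 only and 33.8% at neither. Of the 5 ridge ectoderm markers other than Fgf8, Sp8, Dlx5 and Dlx6 had promoter regions at both stages, Sp6 at E9.5 only, and Trp63, which is expressed in ectoderm generally, at neither. All 4 limb mesenchyme markers (Prrx1, Tbx5, Fgf10 and Lhx9) had promoter regions at both stages, and so had all 7 trunk markers, among them Pax1, Myf5 and Meox1. The promoter percentiles of the trunk markers moved in both directions, with 4 of 7 lower and 3 higher at E10.5. Myf5 was at 59.5 and 27.4, Uncx at 40.1 and 15.8, Meox1 at 35.3 and 12.1 and Pax9 at 84.4 and 79.4, at E9.5 and E10.5 respectively. Pax1 was at 68.9 and 78.01, Tcf15 at 75.7 and 83.1 and Sim1 at 91.7 and 92.2. The part of trunk tissue in the E9.5-specific regions of Fgf8 and Fgf4 was not tested. By the 4 counts of its regions (4 and 1 regions, 3 and 0 stage-specific), Fgf8 was tied with 78 of 22237 other genes, 16 of which had a promoter region at E9.5 only.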

How the data were processed

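ATAC-seq regions of 2 stages with 2 biological replicates each were taken as deposited. According to the submitters' processing notes, the authors used Bowtie 1.1.0, MACS 1.4 and the mm9 build. The study's methods state that reads with a single match were kept, that MACS ran per replicate with no control library named, and that MSPC combined the replicates of a stage. The deposited score is given by the authors and was read as the negative log10, multiplied by 10, of the smallest p-value from MACS among merged replicate regions. It grows with depth, which is unknown.

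Region centres were assigned to the nearest of 70064 transcription starts of protein-coding genes in GENCODE vM1 on NCBIM37, the assembly of mm9. Of the regions, 0 passed the end of their chromosome. Sequence and G and C content were read from the same genome, for the 301 bases around each centre. Python 3.11.15, scipy 1.17.1 and matplotlib 3.10.9 were used, and the assignment and overlap steps were tested on simulated regions. Since each stage has 1 list, no test was made. Shares have 95% Wilson intervals for counting error.

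The members and gene lists were chosen with earlier results of these data known. All promoter regions, the 3 highest-scoring regions of each gene, the stage-specific regions of Fgf8 and Fbxw4 and the highest-scoring ones of the other genes were described singly. Other genes were named where their promoter region was in 1 list only. Genes with counts like Fgf8 were to be named if 5 or fewer were tied. Further neighbouring genes, FGF ligands, markers, the Fgf8 interval without member regions and the printed stretches other than the promoter were chosen after their values were seen. The sequence of 1 further stretch is not reported here.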

Additional observations from a re-analysis of the deposited data

How the results depend on the processing

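Of 35 alternative values for the totals, 27 stayed within 1.5 times the value reported and 8 did not. With the higher-scoring 50% of each list, the 5 genes had 5 regions at E9.5 and 2 at E10.5, of which 4 and 1 were stage-specific. Fgf8 then had 0 regions at both stages, and its promoter call was lost with that of Fgf4 at E9.5 and that of Fgf9 at E10.5. Against the whole other list, 1 and 0 of these were stage-specific. With scores of at least 120, 2 E10.5 regions were stage-specific, and Fgf4 lost its promoter region. With starts of genes of every type, 7 E10.5 regions were assigned, with 2 in place of 6 for Fgf9 and 2 in place of 3 for Fbxw4. Of 120 alternative counts for single genes, 94 stayed within 1.5 times and 26 did not. A promoter distance of 5 kb added Fgf17 at both stages. Windows of 100 kb and 400 kb around Fgf8, and that of scores of at least 120, were chosen after seeing the data and gave ratios of 0.333, 0.562 and 0.333.

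No paired analysis was possible because the replicates of a stage were deposited as 1 merged list. Leaving out a replicate was not run for the same reason. Depth was unknown, and absence from a list says only that no region passed the authors' calling threshold there. At E9.5, 11 of 16 member regions scored under the median of their list.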
